A study of Macaca mulatta with 5 samples.

Results

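T and B lymphocytes were followed in the kidney of fetal rhesus macaques as the cells that the study's integrated single-cell map names T cell (c32) or B cell (c31). Among the 36039 cells of the 5 libraries examined, 156 carried one of these names, 117 of them T cells and 39 B cells. All 5 libraries (Macaca mulatta, 10x Genomics 3′ version 3 chemistry) came from cortex-enriched fetal kidney, which the study places from the late second trimester into the third, the period of lateral branch nephrogenesis. They differ in how the cells were released. For the dissected libraries 600 and 628, cortex was cut out by hand from a pair of donor kidneys and digested cold with trituration and shaking. For the vortexed libraries 623, 627 and 632, tissue was vortexed in a cold Bacillus licheniformis enzyme mix that favours cortical cells. Red blood cells were lysed, and no genetic or drug treatment is named for either preparation. The labels name no strain, sex or exact gestational age per library, nor whether each library is a separate animal. The human cells of the same map and its further rhesus libraries were not analysed here, so no balance between species is given and the 5 libraries do not stand for all rhesus cells of the map.

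T cells mature in the thymus and recognise antigen through the T cell receptor, whose CD3 complex includes CD3D. B cells arise in the fetal liver and later in bone marrow, signal through CD79A and carry MS4A1 (CD20) on their surface. PTPRC (CD45) is shared by nearly all leukocytes. In the fetal kidney, resident macrophages are the best known leukocytes, while lymphocytes are usually sparse and can be in the tissue or in the blood it contains. Both cluster names could be checked only as names: the deposited table has 0 columns of gene values, so the levels of these 4 markers, or of markers for natural killer, mast or red blood cells, were not measured here. Of the 37 cluster names, 7 are leukocytes, namely T cell, B cell, Macrophage (c33), Monocyte (c34), Classical Monocyte (c35), DC (c36, dendritic cells) and pDC (c37, plasmacytoid dendritic cells). No name refers to natural killer or mast cells.

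The libraries held 6839 (600), 6329 (628), 9816 (623), 10502 (627) and 2553 (632) cells. Counts per gene or per cell were not given, so sequencing depth is unknown and the measured quantity is a share of cells. Across the 5 libraries, 143 cell barcodes occurred in more than 1 library, and 0 of the 156 lymphocytes carried such a barcode. Library 632, the smallest, stood apart from the rest. Leukocytes made up 9.56% of it, against 1.37% to 4.28% of the other 4 libraries. In addition, 11.4% of its cells lay in a separate island of the authors' embedding that mixed many cell names, against 0.686% to 1.39% of the cells in the other 4 libraries. Many results are therefore also given without library 632, though not every value is.

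T cells were sparse, and by far most frequent in library 632. They numbered 12 of 6839 cells in library 600 (0.175%, exact 95% binomial interval 0.0907 to 0.306) and 27 of 6329 in library 628 (0.427%, 0.281 to 0.620), the dissected pair. In the vortexed libraries they numbered 15 of 9816 cells in 623 (0.153%, 0.0856 to 0.252), 25 of 10502 in 627 (0.238%, 0.154 to 0.351) and 38 of 2553 in 632 (1.49%, 1.06 to 2.04). The smallest library thus held the most T cells, 32.5% of all T cells although only 7.08% of all cells. The interval of library 632 lay above those of the other 4 libraries, which reached at most 0.620%. The mean share was 0.496% ± 0.565 (SD, n = 5), and without library 632 it was 0.248% ± 0.124 (n = 4). Intervals cover counting error only.

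As a share of all cells, B cells were fewer and more even. They numbered 9 cells in library 600 (0.132%, exact 95% interval 0.0602 to 0.250) and 9 in library 628 (0.142%, 0.0650 to 0.270). In the vortexed libraries they numbered 6 in 623 (0.0611%, 0.0224 to 0.133), 12 in 627 (0.114%, 0.0591 to 0.200) and 3 in 632 (0.118%, 0.0242 to 0.343). All 5 intervals overlapped, and the mean was 0.113% ± 0.0313 (SD, n = 5), or 0.112% ± 0.0360 without library 632. Library 632, which stood far above the rest in T cells, lay within the range of the other 4 libraries in B cells.

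**Figure D1:**
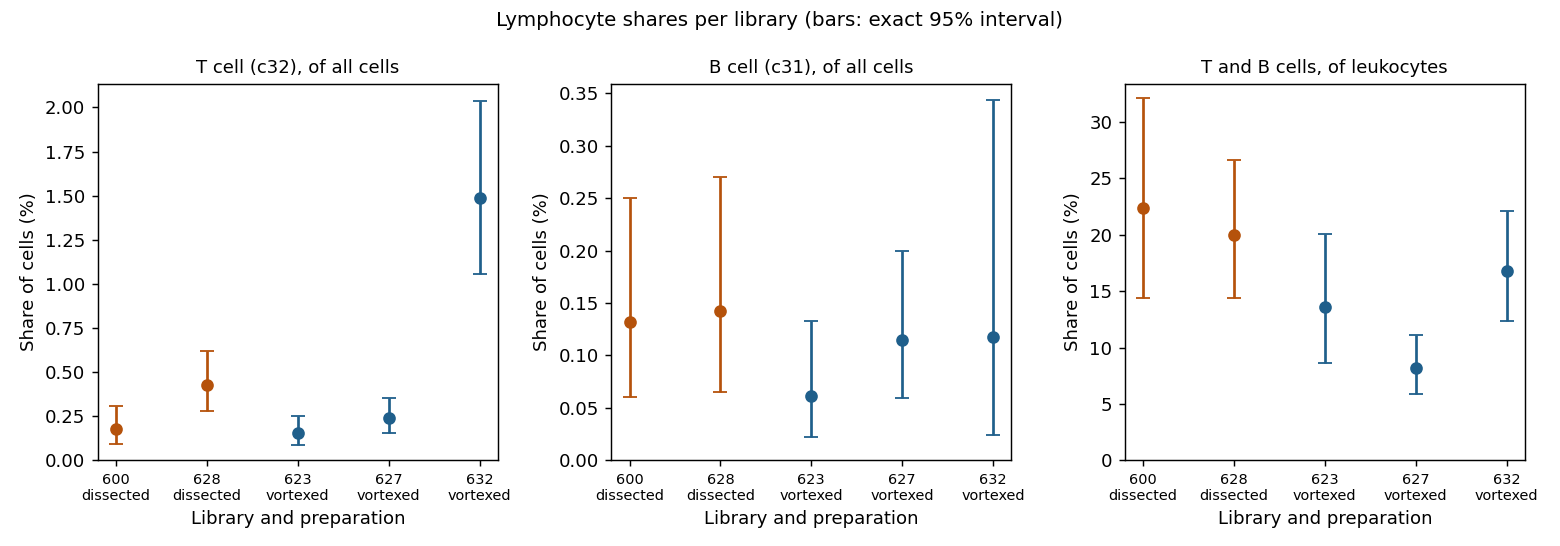
Share of cells (%) per library for T cells and B cells out of all cells, and for both together out of leukocytes; points are libraries (orange dissected, blue vortexed) and bars are exact 95% binomial intervals. Library 632 reached 1.49% T cells, above the 0.153% to 0.427% of the other 4 libraries, whereas the B cell intervals overlapped.

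Set against the 37 clusters of the map, B cell (c31) was among the rarest, at position 35 by mean share, and T cell (c32) was at position 29. The highest and lowest library differed 9.74-fold for T cells, 2.33-fold for B cells and 5.04-fold for the median cluster that was present in every library. Without library 632, the 9.74-fold T cell range narrowed to 2.79-fold and the B cell range stayed at 2.33-fold. The range of the median cluster was not recomputed without it, so 2.79 and 5.04 cannot be compared. Measured against the same share in every library, the chi-square per degree of freedom was 31.2 for T cells and 0.773 for B cells, the lowest of all 37 clusters, with a median of 35.7. A value near or below 1 means that the B cell shares varied no more than counting error, but chi-square grows with cell number and only 39 B cells were counted.

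T cells outnumbered B cells in 5 of 5 libraries. The dissected libraries held 12 T and 9 B cells (600, 1.33-fold) and 27 and 9 (628, 3.00-fold). The vortexed libraries held 15 and 6 (623, 2.50-fold), 25 and 12 (627, 2.08-fold) and 38 and 3 (632, 12.7-fold). Library 632 was apart from the other 4 libraries, whose ratios lay between 1.33 and 3.00. T cells made up 57.1% (exact 95% interval 34.02 to 78.2) of the lymphocytes in library 600, so equal numbers lay within its counting error, against 92.7% (80.1 to 98.5) in library 632. The mean log2 ratio, with 0.5 cells added to each number, was 1.53 ± 1.16 (SD, n = 5). An exact sign-flip test, two-sided, gave p = 0.0625, which is the lowest value possible with 5 libraries, and p = 0.0625 after Benjamini-Hochberg adjustment for the 2 ratios tested. Without library 632 the mean log2 ratio was 1.05.

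Lymphocytes were a minority of the leukocytes in each of the 5 libraries. Taking both names together, 21 lymphocytes stood beside 73 myeloid cells (macrophages, both monocyte clusters and both dendritic clusters) in library 600 and 36 beside 144 in library 628. In the vortexed libraries, 21 stood beside 133 in 623, 37 beside 413 in 627 and 41 beside 203 in 632. There were thus 3.48 (600), 4 (628), 6.33 (623), 11.2 (627) and 4.95 (632) myeloid cells per lymphocyte. The mean log2 ratio of lymphoid to myeloid cells was -2.43 ± 0.66 (SD, n = 5), again with the lowest possible p of 0.0625 in the exact sign-flip test and an adjusted p of 0.0625. Library 632, apart from the others in its T to B ratio, lay inside their range in this one, and without it the mean log2 ratio was -2.46.

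**Figure D2:**
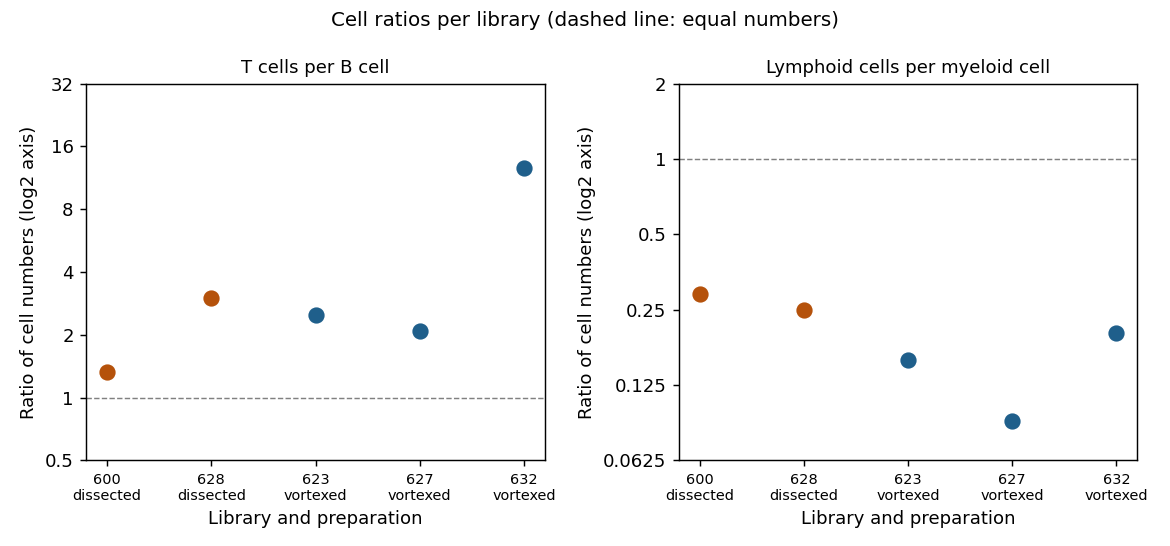
T cells per B cell and lymphoid cells per myeloid cell in each library, on log2 axes; points are libraries (orange dissected, blue vortexed) and the dashed line marks equal numbers. All 5 libraries had more T than B cells, with library 632 highest at 12.7, and all had fewer lymphoid than myeloid cells.

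As a share of leukocytes, T cells no longer set library 632 apart. They made up 12.8% and 15% of leukocytes in libraries 600 and 628 (dissected), and 9.74%, 5.56% and 15.6% in libraries 623, 627 and 632 (vortexed). The value of 632 was 1.04 times that of library 628, well within counting error. The lowest T cell share, in library 627, went with the largest number of leukocytes, 450, of which 41.8% were Classical Monocyte (c35), cells of the blood monocyte type, and 16.7% were pDC (c37), producers of type I interferon. B cells made up 9.57% and 5% of leukocytes in libraries 600 and 628, and 3.90%, 2.67% and 1.23% in libraries 623, 627 and 632. Here library 632 had the lowest value. With this denominator B cells were less even than T cells, 7.79-fold against 2.80-fold between the highest and lowest library.

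Within the leukocytes, T cells were outnumbered by Classical Monocyte (c35) in 5 of 5 libraries, least in library 632 (1.18-fold) and most in library 627 (7.52-fold). Macrophage (c33), the resident phagocytes, outnumbered T cells in 4 of 5 libraries, with 31 macrophages and 38 T cells in library 632 as the exception. T cells outnumbered pDC (c37) in 4 of 5 libraries, except in library 627 with 25 T cells and 75 pDC. B cells were the least frequent of the 7 leukocyte names in vortexed libraries 623, 627 and 632, whereas in dissected libraries 600 and 628 pDC was rarer, with 4 and 8 cells against 9 and 9 B cells. These orders rest on small numbers and were not tested.

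**Figure D3:**
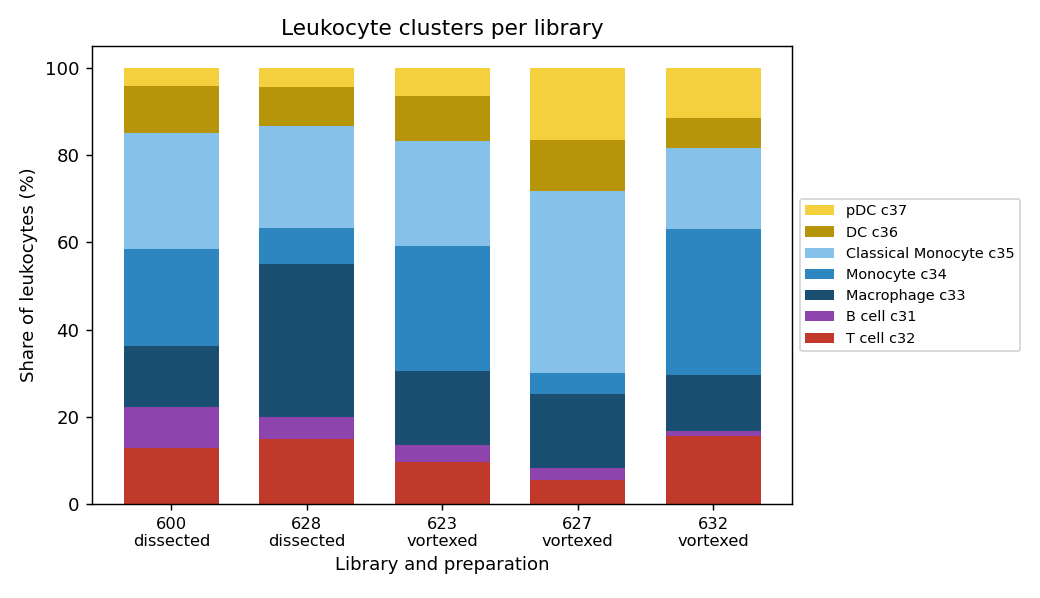
Share of leukocytes (%) held by each of the 7 leukocyte clusters, stacked to 100% per library, with dissected libraries left of vortexed ones. T and B cells together (the lowest segments) held 22.3% and 20% of the dissected 600 and 628 and 13.6%, 8.22% and 16.8% of the vortexed 623, 627 and 632.

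The protocols imply a comparison of the preparations. T cells averaged 0.301% ± 0.178 in dissected libraries (SD, n = 2) and 0.626% ± 0.748 in vortexed libraries (n = 3), and the groups overlapped. Without library 632 the vortexed mean was 0.195% ± 0.0603 (n = 2). In a limma fit of log2 odds over 37 clusters, the difference for T cell (c32) was -0.46 (SE 1.06, 95% interval -2.93 to 2.01, limma adjusted p = 0.863). Its direction was not stable, since it was 0.53 without library 632, 0.17 without library 600 and 0.62 with leukocytes as the denominator. B cells averaged 0.137% ± 0.00750 in dissected libraries and 0.0976% ± 0.0317 in vortexed libraries, with both dissected values above all 3 vortexed values. The limma difference for B cell (c31) was 0.49 (SE 0.68, 95% interval -1.08 to 2.06, limma adjusted p = 0.784), an interval that spans 0. Across the map, groups failed to overlap for 29.7% of the 37 clusters, against 1 of the 2 lymphocyte clusters. By limma, 0 clusters (0%) passed an adjusted p of 0.05 and 13.5% had an unadjusted p below 0.05, neither lymphocyte cluster among them.

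The lymphoid share of leukocytes and the lymphoid to myeloid ratio separated the preparations in order but not by test. Both express the same observation, since the leukocytes here are the lymphoid and myeloid cells together. T and B cells together made up 21.2% ± 1.65 of leukocytes in dissected libraries (SD, n = 2) and 12.9% ± 4.34 in vortexed libraries (n = 3), a difference of 8.28 points (exact two-sided permutation test, p = 0.2). The mean log2 ratio of lymphoid to myeloid cells was -1.88 ± 0.15 in dissected libraries and -2.80 ± 0.60 in vortexed libraries. This difference of 0.92 had an exact two-sided permutation p of 0.2 and an adjusted p of 0.6 over 3 values, where 2 against 3 libraries allow no p below 0.1. Leaving out library 632, the difference was 1.17. Leukocytes as a whole made up 2.11% ± 1.04 of dissected and 5.14% ± 4.06 of vortexed libraries, and the vortexed mean was 2.93% ± 1.92 without library 632 (n = 2). The groups overlapped, since library 600 (dissected) had 1.37% and 628 (dissected) 2.84%, while 623 had 1.57%, 627 had 4.28% and 632 had 9.56% (all vortexed). As a share of all cells, lymphocytes averaged 0.438% ± 0.185 in dissected libraries and 0.724% ± 0.767 in vortexed libraries (exact permutation p = 0.9, adjusted p = 0.9), and this difference of -0.286 points turned to 0.155 without library 632, when the vortexed mean was 0.283% ± 0.0978 (n = 2). The T to B log2 ratio averaged 0.96 ± 0.80 in dissected libraries and 1.91 ± 1.34 in vortexed libraries (exact permutation p = 0.6, adjusted p = 0.9), a difference of -0.95 that shrank to -0.18 without library 632. Preparation cannot be told apart from gestational age or animal, which the labels do not give per library.

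The T cells did not form a single body in the deposited UMAP embedding, a flat map in which cells with similar profiles are drawn close together. How the layout and the cluster names were made is not given, and both may rest on the same gene values. Places in the layout are therefore used to describe the cells and test nothing. Cells of the 5 libraries closer than 0.3 layout units were linked, and the linked sets are called islands. One island of 82 cells was a T cell island, with 77 T cells beside 3 M-phase (c27), 1 Cap mesenchyme (c30) and 1 Podocyte (c20) cell. One of 34 cells was a B cell island, with 32 B cells beside 1 M-phase (c27) and 1 G2-M phase (c28) cell. Besides the T cell island, 31 T cells lay in the mixed island, 4 in the main body of kidney cells and 5 close to Classical Monocyte (c35) cells. Of the B cells outside their own island, 6 lay in the main body and 1 in the mixed island. By place, 65.8% of T cells and 82.1% of B cells were thus in an island of their own name. The lower T cell value owed much to library 632, where it was 36.8%. In libraries 600, 628, 623 and 627 it was 91.7%, 66.7%, 80% and 88% of T cells. For B cells it was 77.8%, 88.9%, 100% and 83.3% in these libraries, and 33.3% (1 of 3 cells) in library 632.

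**Figure D4:**
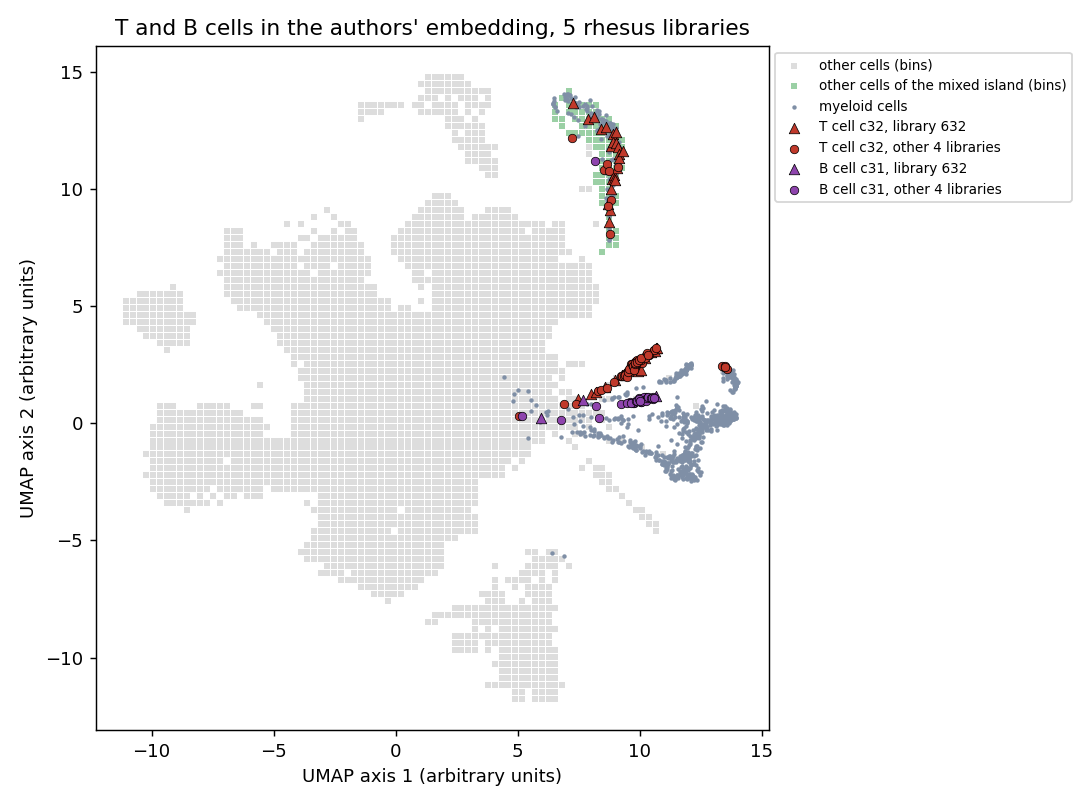
Position of T cells (red) and B cells (purple) of 5 rhesus libraries in the authors' UMAP embedding (both axes in arbitrary units), with library 632 as triangles and the other 4 libraries as circles; grey squares are bins holding other cells, green squares those of the mixed island, and blue-grey dots myeloid cells. T cells of library 632 gather in the mixed island at upper right, apart from the T cell island.

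The T cells in the mixed island came mostly from library 632. The mixed island was picked by its share of Proximal tubule (c6) cells, the largest among islands holding T cells, leaving out the T cell island. The lead of that name therefore partly follows from the choice. The island held 628 cells with 31 different names. Of these cells, Proximal tubule (c6) made up 33.6%, Monocyte (c34) 21.2%, Proximal tubule (c18) 10.4%, Fibroblast (c26) 8.76% and T cell (c32) 4.94%. It took in 1 of 12 T cells of library 600 and 4 of 27 of library 628, the dissected pair, and 1 of 15 of library 623, 2 of 25 of library 627 and 23 of 38 of library 632 among the vortexed ones. In percent this was 8.33%, 14.8%, 6.67%, 8.00% and 60.5% of T cells in the same order. Of the island's cells, 291 were from library 632, and 82, 47, 136 and 72 were from libraries 600, 628, 623 and 627. T cells made up 7.90% of the island's cells from library 632. In libraries 600, 628, 623 and 627 they made up 1.22%, 8.51%, 0.735% and 2.78% of them. Linking at 0.5 or 0.75 layout units again placed 31 T cells and 1 B cell in it.

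Outside the mixed island, T cells made up 0.163% and 0.366% of dissected libraries 600 and 628 and 0.145%, 0.221% and 0.663% of vortexed libraries 623, 627 and 632. The exact 95% interval of library 632 (0.372 to 1.09) then overlapped with the 0.232 to 0.549 of library 628. It still lay above the intervals of libraries 600, 623 and 627, which reached at most 0.331%. The highest library was 4.59-fold above the lowest, against 9.74-fold with all cells. The mean outside the island was 0.311% ± 0.215 (SD, n = 5), with the island's cells removed from numerator and denominator alike. The T to B ratio outside the island was 1.22 and 2.88 in libraries 600 and 628 and 2.33, 1.92 and 5 in libraries 623, 627 and 632. There were 0.370 and 0.225 lymphoid cells per myeloid cell there in libraries 600 and 628, and 0.213, 0.0856 and 0.164 in libraries 623, 627 and 632. B cell shares moved little, with a mean of 0.114% ± 0.0300. The island was singled out after the positions had been seen, so these values have no test, and its part in the high T cell share of library 632 was not tested beyond leaving it out.

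**Figure D5:**
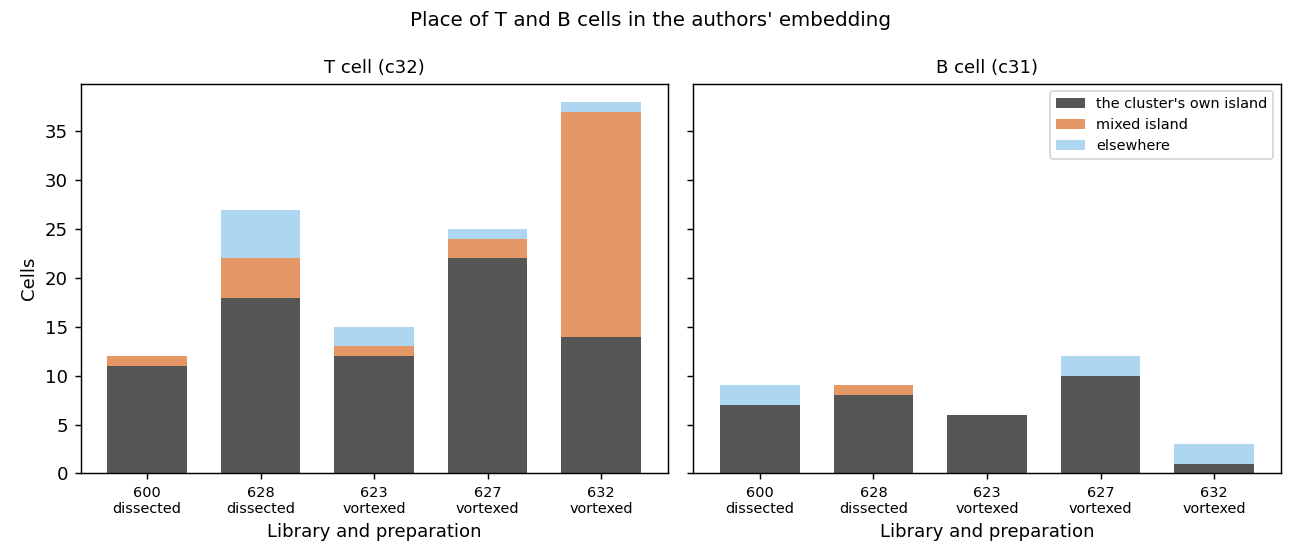
Number of T cells and B cells per library by place in the authors' embedding: the island of their own name (dark grey), the mixed island (orange) and elsewhere (light blue), with dissected libraries left of vortexed ones. In library 632, 14 T cells lay in the T cell island and 23 in the mixed island, whereas libraries 600, 628, 623 and 627 had 11, 18, 12 and 22 in the T cell island.

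Which cells of another name lay nearest to T cells differed between libraries, with B cells and pDC leading in libraries 628 and 627 and pDC and Proximal tubule (c6) in library 632. Among the 15 nearest differently named cells of the same library, leaving out clusters named by phase, B cells made up 35.3% in library 628, 37.9% in library 627 and 2.28% in library 632, the 3 libraries with at least 20 T cells. B cells were 0.166%, 0.158% and 0.126% of the cells they were drawn from. pDC made up 27.7%, 44.8% and 26.5% of these neighbours in libraries 628, 627 and 632. In library 632, Proximal tubule (c6) followed with 24.2% and Monocyte (c34) with 17.2%, and this library had only 3 B cells to find. No library held 20 B cells, so the same count was not made for them. Counted instead over the cells of all 5 libraries and all names, the 15 nearest cells of the 117 T cells were T cells in 62.1%, Proximal tubule (c6) in 9.52%, Monocyte (c34) in 5.75% and Classical Monocyte (c35) in 3.53%. By the median position of all clusters, T cell (c32) and B cell (c31) were each other's nearest neighbour in the layout.

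Within the T cell island, cells of libraries 628 and 627 lay beside cells of the same library about as often as their numbers give. Cells of libraries 600 and 623 did so less often, and those of library 632 more often. These shares rest on 11 to 22 cells per library. Of the 5 nearest T cells of the island, 9.09% were from the same library for the 11 cells of library 600 and 21.1% for the 18 cells of library 628, against 13.2% and 22.4% if position did not depend on library. For the vortexed libraries the figures were 8.33% against 14.5% for the 12 cells of library 623, 26.4% against 27.6% for the 22 cells of library 627 and 28.6% against 17.1% for the 14 cells of library 632. These are descriptions of the layout and were not tested.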

How the data were processed

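Single-cell RNA sequencing of 5 rhesus libraries was done by the authors with 10x Genomics 3′ chemistry, per the labels' protocols. The submitters' processing notes list Seurat, Cell Ranger 6.0.1 and, as genome build, hg19, without a stated role. How cells were filtered, doublets treated and clusters made is not given in the sources used here. Per the file headers, the deposited table lists each cell's cluster name, library, species and UMAP position, a score in arbitrary units. Rows were used where the library name matched a sample title, which left 11 library names of both species with 58227 rows not analysed here.

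The members and lists were chosen with earlier results of these data known. The named clusters were T cell (c32) and B cell (c31), set beside the other 5 leukocyte clusters. Shares have exact (Clopper-Pearson) 95% intervals. Preparations were compared with limma 3.58.1 (R 4.3.3) on log2 odds with 0.5 cells added, over all 37 clusters with at least 10 cells and with Benjamini-Hochberg adjustment at 0.05, a step tested on simulated data. Single values had exact permutation or sign-flip tests (SciPy 1.17.1 for intervals and neighbours). Replicates were numbered in accession order, and p-values measure only the spread between libraries, which may be technical. The lowest chi-square between any pair of libraries, 25.3 per degree of freedom, gave no sign of a library deposited in duplicate.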

Additional observations from a re-analysis of the deposited data

Results flagged for a closer look

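Library 632 lay far from the other 4 libraries, by Dixon's criterion for 5 values, in 3 of the 8 sets examined. The criterion was applied to percents and folds as they stood. Log2 values, on which a single high value stands out less, were not examined with it, so the 3 marks hold only for untransformed values. On the log2 scale used for the sign-flip test, the T to B ratio of library 632 was 3.46, against 0.396 to 1.53 in the others. Chance marks about 1 set in 20 (5%) if values are normally distributed, which was not checked here. These 3 sets share the same T cells, so they are not independent. The T cells of library 632 made up 1.49% of all cells, against 0.153% to 0.427% in the others. Its T and B cells together made up 1.61%, against 0.214% to 0.569%. It had 12.7 T cells per B cell, against 1.33 to 3.00, and this ratio rests on only 3 B cells. T cells and lymphocytes as shares of leukocytes, B cells by either denominator, and the lymphoid to myeloid ratio did not pass the criterion. In the same library, 60.5% of T cells, 11.4% of all cells and 93 of the 203 myeloid cells lay in the mixed island. Myeloid cells of the other libraries lay there too, 19 of 73 in 600, 6 of 144 in 628, 39 of 133 in 623 and 4 of 413 in 627. The island was singled out after the positions had been seen and is therefore a description. Its part in these values was not tested.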

How the results depend on the processing

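Of the 51 recomputed ratios and differences, 5 changed direction. Mean shares have no test, and the sign-flip and permutation tests cannot go below 0.05 with so few libraries, so for these only size and direction could change. The mean T cell share, 0.496%, was 0.248% without library 632. The difference in lymphoid share between dissected and vortexed libraries was -0.286 points of all cells. It turned to 8.28 points with leukocytes as the denominator and ranged from -0.541 to 0.155 with 1 library left out. Leukocytes averaged 2.11% of dissected and 5.14% of vortexed libraries, and the groups overlapped. The part of the leukocyte share in this change was not tested. The log2 odds difference for T cell (c32), -0.46, turned to 0.62 with leukocytes as the denominator and ranged from -1.11 to 0.53 with 1 library left out (positive without library 600 or 632); the cause of the change without library 600 was not tested. With 1 library left out, the T to B mean log2 ratio ranged from 1.05 to 1.82 and the lymphoid to myeloid one from -2.59 to -2.17, where 4 libraries allow no sign-flip p below 0.125. Pooling cells in place of averaging libraries gave 0.325% T cells, 1.53 times less than the mean. The alternatives that use the embedding were added after seeing the data. No paired analysis was possible because the labels give no replicate numbers that the preparations share. With 3 to 38 cells of a name per library, cell number limits the precision, and the limma intervals for both clusters span 0.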
